A study of Mus musculus with 4 samples.

Results

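Very long genes of the mouse genome were examined for the regions called in a CUT&RUN experiment on Six3, a homeodomain protein that patterns the anterior brain and the eye. A gene was counted as very long when it is protein-coding, lies on chromosomes 1 to 19 and spans 500 kb or more from start to end in mm10, and a region belonged to it when its midpoint lay inside. There were 216 such genes, 501.8 to 2271 kb long with a median of 735 kb, and they held 111421 of the 1578514 regions in the table. The library labels name 3 libraries made against FLAG-tagged Six3 and 1 made with control immunoglobulin (IgG). All came from primary mouse neural stem cells labelled WT, taken 3 h after the growth factor medium had been exchanged for neurobasal medium with B-27 supplement, and the series text adds that Six3 was overexpressed in the cultured lines. Sources used here do not give the promoter that drove Six3, the number of lines or animals, or whether the IgG cells carried the construct. The analysed table combines libraries in a way that is not stated and measures no expression, so the cell type could not be checked against markers and no value has a replicate error. The comparisons are therefore descriptions without p-values, and their 95% intervals cover counting error only, with each region treated as independent.

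Genes of this size are mostly intron. In mammals many of them are expressed in neurons, where they encode cell adhesion molecules that join axons to their targets, receptors and channels of the synapse, and the scaffolds beneath them. Several coincide with common fragile sites, which break when replication is slowed. In CUT&RUN a nuclease tethered to an antibody cuts around the protein of interest, and the released fragments are sequenced. A called region is thus a stretch of raised coverage, and it need not be a binding site.

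All heights in the table except those of 3 regions, none of them in a very long gene, could be assigned to a set that rises in steps of 1.9 or a set that rises in steps of 0.48. The origin of each set among the libraries is not stated. In very long genes 65878 regions had heights in steps of 1.9 and 45543 in steps of 0.48. The highest signal of a region is given below as deposited or as a number of steps of its own set, and heights are compared only within a set.

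Sequence was at hand for annotated starts. RefSeq promoter windows (GRCm38.p6, the coordinates of mm10) matched 169 of the 216 genes with 271 starts, and the 250 bases before a start are shown here for 4 of them, on the strand of the gene, to set starts under tall regions beside starts with none. Capitals mark TGATAC or its complement GTATCA, a motif bound by Six3 and its relatives, and TAATTA, a core that many homeodomains bind. Grip1 and Dgkb were chosen for tall regions over a promoter window, and Macrod2 and Nrxn3 as very long genes with no annotated window touched by a region.
Grip1 (chr10:119819139-119819388, plus strand): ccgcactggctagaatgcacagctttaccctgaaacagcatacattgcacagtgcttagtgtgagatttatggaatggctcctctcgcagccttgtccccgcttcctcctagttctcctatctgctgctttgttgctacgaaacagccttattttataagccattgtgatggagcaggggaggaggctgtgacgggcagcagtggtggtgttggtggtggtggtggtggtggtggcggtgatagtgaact
Dgkb (chr12:37879924-37880173, plus strand): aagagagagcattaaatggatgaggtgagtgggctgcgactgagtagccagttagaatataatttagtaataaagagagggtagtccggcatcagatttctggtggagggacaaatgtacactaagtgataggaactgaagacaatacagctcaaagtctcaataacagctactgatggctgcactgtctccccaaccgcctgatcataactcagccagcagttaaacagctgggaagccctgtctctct
Macrod2 (chr2:140395180-140395429, plus strand): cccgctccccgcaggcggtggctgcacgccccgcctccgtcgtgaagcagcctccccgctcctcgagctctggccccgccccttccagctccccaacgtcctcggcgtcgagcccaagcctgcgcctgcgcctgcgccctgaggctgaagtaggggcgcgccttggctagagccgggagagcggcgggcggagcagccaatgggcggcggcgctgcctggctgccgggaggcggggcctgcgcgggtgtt
Nrxn3 (chr12:88794254-88794503, plus strand): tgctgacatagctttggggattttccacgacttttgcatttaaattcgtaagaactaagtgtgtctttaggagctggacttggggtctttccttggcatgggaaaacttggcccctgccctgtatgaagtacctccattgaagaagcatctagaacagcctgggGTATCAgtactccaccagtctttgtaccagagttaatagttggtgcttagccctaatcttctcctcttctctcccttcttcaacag
Grip1, a PDZ scaffold that holds glutamate receptors, was overlapped here by a 1.9-step region of 802 bp with a highest signal of 13.3, or 7 steps. Dgkb, a diacylglycerol kinase, was overlapped by a 1.9-step region of 699 bp with 11.4. Neither of these stretches holds a searched motif. The stretch before the shown start of Nrxn3, a presynaptic neurexin with 3 annotated starts, holds GTATCA once and no region touches it. The stretch of Macrod2, an ADP-ribosylhydrolase gene, consists of G and C at 76.4% of its bases and holds neither motif. That share is 45.6% in Nrxn3 and also in Dgkb. Among the 271 starts of very long genes, 13 (4.8%) held TGATAC or its complement. The share was 3.05% of 1507 starts of genes of 100 to 200 kb and 3.92% of 20085 starts of all autosomal protein-coding genes. TAATTA, which reads the same on both strands, was in 14 (5.17%) of the very long genes' starts, against 3.38% and 4.26%. The counts are small, and no interval was computed for these shares. Of the 104 starts overlapped by a region of either set, 5 held TGATAC and 5 held TAATTA, and of the 167 that were not, 8 and 9 did. The median share of G and C was 54% in the overlapped starts and 58% in the others.

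Regions of the 1.9-step set were sparser in very long genes than in genes of 100 to 200 kb, whereas regions of the 0.48-step set were almost as dense. Pooled over the genes, 1.9-step regions occurred at 0.366 per kb in very long genes and at 0.411 per kb in 1345 genes of 100 to 200 kb, a ratio of 0.891 (exact binomial interval 0.882 to 0.90). The 0.48-step set had 0.253 against 0.258 per kb, a ratio of 0.982 (0.969 to 0.994). Very long genes made up 7.50% of the sequence spanned by the table on chromosomes 1 to 19, and they held 7.20% of its 1.9-step and 7.57% of its 0.48-step regions. All 216 genes held regions of both sets.

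The fall in 1.9-step density came with the greatest lengths. The median over genes was 0.415 regions per kb at 20 to 50 kb, 0.412 at 50 to 100 kb, 0.411 at 100 to 200 kb, 0.396 at 200 to 500 kb and 0.367 at 500 kb or more. For the 0.48-step set these medians ran from 0.256 to 0.259 in the shorter classes and stood at 0.254 in very long genes. Among the very long genes themselves, the 55 of 1 Mb or more had a median of 0.351 1.9-step regions per kb and the 161 shorter ones 0.376. The correlation of 1.9-step density with length over the 216 genes was weak (Pearson r = -0.18, Spearman rho = -0.23). With the 0.48-step set it was r = 0.037 and rho = 0.11, and all these points share the same libraries.

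**Figure D1:**
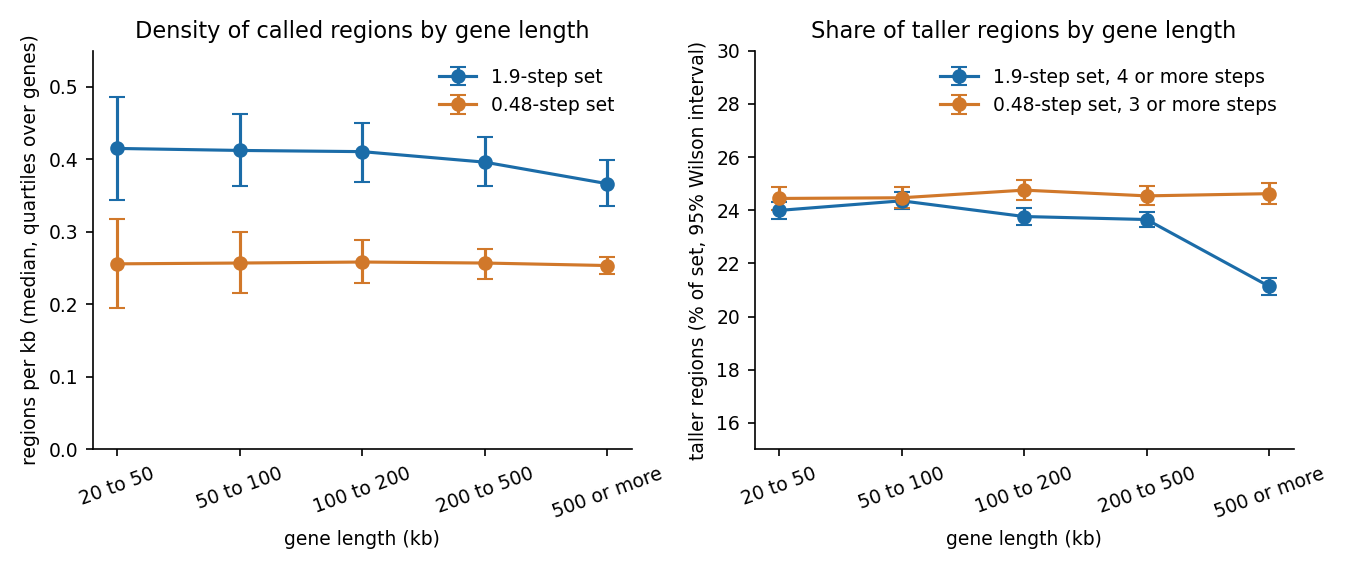
Left, regions per kb of gene (median with quartiles over genes) by gene length in kb, for the 1.9-step and the 0.48-step set. Right, the share of taller regions in each set in percent with 95% Wilson intervals, on an axis that starts at 15; the 1.9-step set is lowest at 500 kb or more in both panels, at 0.367 per kb and 21.1%.

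On single chromosomes the ratio of 1.9-step density in very long genes to that in genes of 100 to 200 kb lay below 1 on 18 of 19. It was lowest on chromosome 15, at 0.701, and highest on chromosome 9, at 1.003, with a median of 0.912. On chromosome 15 the genes of 100 to 200 kb had 0.501 per kb, the highest such value of the 19 chromosomes. The very long genes there had 0.351, within the range of the other chromosomes. For the 0.48-step set 12 chromosomes lay below 1 and 7 above, between 0.938 on chromosome 10 and 1.04 on chromosome 14. Of the 335 regions of 10 or more steps on chromosomes 1 to 19, only 169 lay outside chromosomes 5, 10 and 15, so some values are also given without these chromosomes. The pooled ratio of the 1.9-step set without them was 0.902.

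Of the 216 genes, 44 (20.4%) had a 1.9-step density 1.25-fold or more below the median of genes of 100 to 200 kb, against 10.1% of all genes of 100 kb or more, and 1 had a density that far above it, against 4.82%. For the 0.48-step set 1 gene lay that far below (background 9.33%) and 0 that far above (background 5.43%). Shorter genes hold fewer regions each, so counting error alone carries more of them past such a fold, and these backgrounds are not like for like. A density above the median of genes of 100 to 200 kb, with no fold required, was found in 38 of 216 genes for the 1.9-step set (background 43.7%) and in 84 for the 0.48-step set (background 48.4%).

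Very long genes differed from each other in the 1.9-step set by more than counting error and in the 0.48-step set by no more than it. The standard deviation of 1.9-step density over the 216 genes was 0.0504 per kb, where random counting at the pooled density gives 0.0222. For the 0.48-step set it was 0.0175 where counting gives 0.0184. The 1.9-step densities ran from 0.265 to 0.613 per kb with quartiles at 0.335 and 0.399, and the 0.48-step densities from 0.196 to 0.307 with quartiles at 0.242 and 0.265. Density in the 1.9-step set said little about the 0.48-step set in the same gene (Pearson r = 0.19, Spearman rho = 0.16, 216 genes).

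**Figure D2:**
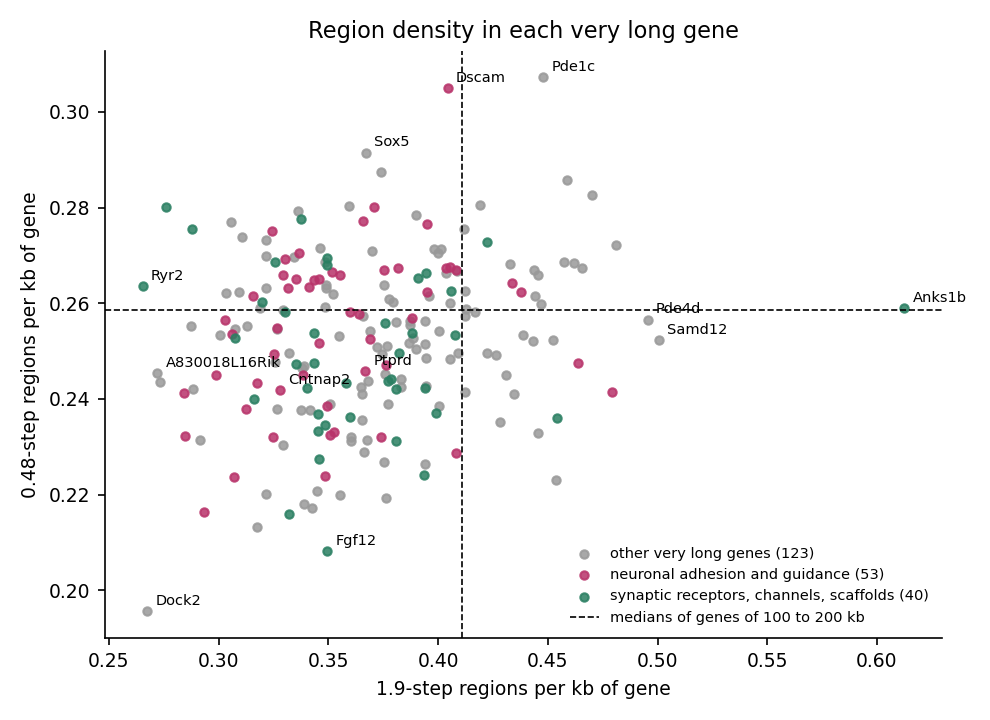
Each point is 1 of the 216 very long genes, placed by its 1.9-step (x) and 0.48-step (y) regions per kb and coloured by gene list, with named genes labelled and dashed lines at the medians of genes of 100 to 200 kb. Most genes, 178 of 216, lie at or left of the vertical line, and Anks1b stands apart on the right at 0.613 per kb.

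The 6 longest genes all lay below the median of genes of 100 to 200 kb in 1.9-step density, and only 38 of all 216 very long genes lay above it. Ptprd, a receptor tyrosine phosphatase that acts in synapse adhesion and the longest of the genes (chr4:75941237-78211742), held 833 1.9-step regions at 0.367 per kb and 558 0.48-step regions at 0.246 per kb. Cntnap2, a neurexin-like protein of the axon (chr6:45060061-47301393), had 735 and 542 regions, at 0.328 and 0.242 per kb. Lsamp, a GPI-anchored adhesion molecule of limbic neurons (chr16:39984254-42181679), had 811 and 555 at 0.369 and 0.253 per kb. Lrp1b, of the LDL receptor family, had 0.326 and 0.255 per kb, and Macrod2 had 0.376 and 0.245. Dlg2, a scaffold of the postsynaptic density, had 0.358 and 0.243. The 1.9-step densities of these 6 genes were 0.795 to 0.915 of that median. The lowest, those of Lrp1b and Cntnap2, passed the fold of 1.25 below it, as did 20.4% of all very long genes.

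Anks1b, which encodes a protein of the postsynaptic density, had the highest 1.9-step density of all (chr10:89872915-90973300). It held 674 1.9-step regions at 0.613 per kb (exact Poisson interval 0.567 to 0.661), 1.49 times the median of genes of 100 to 200 kb, while its 0.48-step density was 0.259 per kb, 1.002 times that median. The sequence beside Anks1b outside genes had 0.596 1.9-step regions per kb, so the gene lay in a stretch that was dense throughout. Samd12, on chromosome 15, followed with 0.501 per kb (0.441 to 0.566) and 0.448 beside it. Pde4d, a cAMP phosphodiesterase on chromosome 13, had 0.495 per kb (0.458 to 0.535) and 0.462 beside it. Of the 216 genes only Anks1b was 1.25-fold or more above the median of genes of 100 to 200 kb. Without chromosomes 5, 10 and 15 the count was 0 of 185. With these chromosomes kept, 4.82% of all genes of 100 kb or more lay that far above.

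The lowest 1.9-step densities were 0.265 per kb in Ryr2 (0.224 to 0.312), a calcium release channel of the endoplasmic reticulum, 0.267 in Dock2 (0.226 to 0.314), a Rac activator of leukocytes, and 0.272 in A830018L16Rik (0.231 to 0.319). Ryr2 had 0.264 0.48-step regions per kb, 1.02 times the median of genes of 100 to 200 kb, and 0.274 1.9-step regions per kb beside it. Dock2 was low in both sets, with the lowest 0.48-step density of the 216 genes, 0.196 per kb. A stretch of 144 kb inside Dock2 (chr11:34540745-34684520) held no region of either set, and over the rest of the gene the densities were 0.361 and 0.264 per kb. Only Dock2 had an empty stretch of over 50 kb. The next longest were 39.0 kb in Cntnap2 and 34.4 kb in Rims1, an organiser of the presynaptic active zone, and the median longest empty stretch was 10.4 kb. Whether reads can be placed in these stretches was not tested.

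In the 0.48-step set the highest densities were 0.307 per kb in Pde1c, a calmodulin-dependent phosphodiesterase, 0.305 in Dscam, an adhesion molecule of neurites, and 0.291 in Sox5, a transcription factor of cortical neurons. Their exact Poisson intervals were 0.264 to 0.356, 0.262 to 0.353 and 0.258 to 0.328. The lowest after Dock2 were 0.208 in Fgf12, an intracellular regulator of sodium channels (0.173 to 0.248), and 0.213 in Fam155a (0.177 to 0.255). The intervals of these genes are wide beside the spread between genes, and the order among them is not settled by the counts.

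The genes nearest the length limit of 500 kb are given for description. Just inside it, Edil3 (502 kb) had 0.426, Dock1 (503 kb) 0.404 and Samd12 (503 kb) 0.501 1.9-step regions per kb. Just outside it, Dnm3 (496 kb), a dynamin, had 0.409, Lrrc7 (495 kb), a postsynaptic scaffold, 0.344 and Cacna1e (494 kb), a calcium channel subunit, 0.405.

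Neuronal adhesion and synaptic genes had slightly fewer 1.9-step regions per kb than the other very long genes and the same 0.48-step density within counting error. Of the 216 genes, 93 were on these lists. The other genes include some with adhesion or synaptic roles that the lists lack, among them Grip1, Asic2, Pcdh15, Fat3 and 3 protocadherin gene models on chromosome 18. With these 7 moved to the lists, chosen after the values were seen, the 1.9-step ratio given next was 0.954 (0.940 to 0.969). The pooled 1.9-step density of the 93 listed genes was 0.958 times that of the other 123 (exact binomial interval 0.943 to 0.973), with medians of 0.349 against 0.376 per kb. The standard deviations over genes, 0.0491 and 0.0502 per kb, exceed that difference, so the groups overlap widely. The pooled ratio of the 0.48-step set was 0.996 (0.978 to 1.01). The listed genes are longer, with a median of 858 kb against 664 kb. Restricted to genes of 500 kb to 1 Mb, the 1.9-step ratio was 0.945 (0.926 to 0.965). In the 1.9-step set 7 of 93 listed genes lay above the median of genes of 100 to 200 kb, against 31 of the other 123 and the background of 43.7% given above. Each gene was also set against the sequence beside it outside genes. The median 1.9-step ratio of inside to beside was 1.006 in the listed genes and 1.007 in the others, so neither group was sparser than its surroundings.

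The adhesion and guidance list, with 53 very long genes such as Ptprd, Cntnap2 and Lsamp, had a median of 0.349 1.9-step regions per kb, beside 0.367 over all 216. Of its members 15 (28.3%) lay 1.25-fold or more below the median of genes of 100 to 200 kb and 0 above, where 20.4% of all very long genes and 10.1% of genes of 100 kb or more lay that far below. The synaptic list of 40 receptors, channels and scaffolds also had a median of 0.349, with 7 members (17.5%) below, a share near that of all very long genes, and 1, Anks1b, above. Pooled over genes, however, the synaptic list had 0.366 per kb, as did all 216, while the adhesion list was lower, at 0.353. Among the longest members of the synaptic list Dpp10, an auxiliary subunit of potassium channels, had 0.320 per kb, and Magi2, a scaffold, had 0.399. The 0.48-step medians of these lists were 0.257 and 0.249 per kb, beside 0.254 over all 216, and no member passed the fold of 1.25 in either direction.

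The other lists had higher 1.9-step medians, with exceptions. Intracellular signalling enzymes had the highest, 0.405 per kb over 22 genes, with 3 members (13.6%) below and 0 above by the same fold, beside the 20.4% and 10.1% given above. Within that list Pde4d had 0.495, Erbb4, a neuregulin receptor, 0.348, and Prkg1, a cGMP-dependent kinase, 0.321. Transcription and RNA regulators had 0.390 over 21 genes, with 2 (9.52%) below and 0 above. Its 3 longest members were Rbfox1, a splicing factor, with 0.334, Auts2 with 0.390 and Rbms3, an RNA-binding protein, with 0.376. The 7 cytoskeletal and dystrophin complex genes had the lowest median, 0.329, with 3 (42.9%) below and 0 above. Ctnna3, an alpha-catenin, had 0.322, Ccser1 had 0.329, and Sgcz, a sarcoglycan, had 0.313. The 23 genes reported at common fragile sites, a list that crosses the others, had 0.360, with 4 (17.4%) below and 0 above. The 73 genes on none of the functional lists had a median of 0.372, with 14 (19.2%) below and 0 above. The shares of these last 2 groups are near that of all very long genes, and the lists are small. The 0.48-step medians of all these lists lay between 0.244 and 0.259 per kb.

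Sequence next to very long genes had the same density as the genes themselves. In the 500 kb on either side, counting only sequence outside any protein-coding gene, 1.9-step regions occurred at 0.364 per kb and 0.48-step regions at 0.251 per kb. The pooled ratio of inside to outside was 1.01 in both sets, with exact binomial intervals of 0.994 to 1.02 (1.9-step) and 0.992 to 1.02 (0.48-step). Gene by gene, 116 of 216 were denser inside than beside in 1.9-step regions and 121 in 0.48-step regions. The 1.9-step density of a gene followed that of its surroundings (Pearson r = 0.76, Spearman rho = 0.70 over 216 genes, and 0.75 and 0.74 over the 185 outside chromosomes 5, 10 and 15). For the 0.48-step set these were 0.14 and 0.18. The points share libraries, and some neighbouring genes share flanking sequence. Of the named genes, Auts2, a gene of neuronal development, was the densest relative to its surroundings in the 1.9-step set, with 0.390 per kb inside and 0.297 outside, a ratio of 1.31. Dock2, with its empty stretch, was the lowest of the named genes at 0.778.

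**Figure D3:**
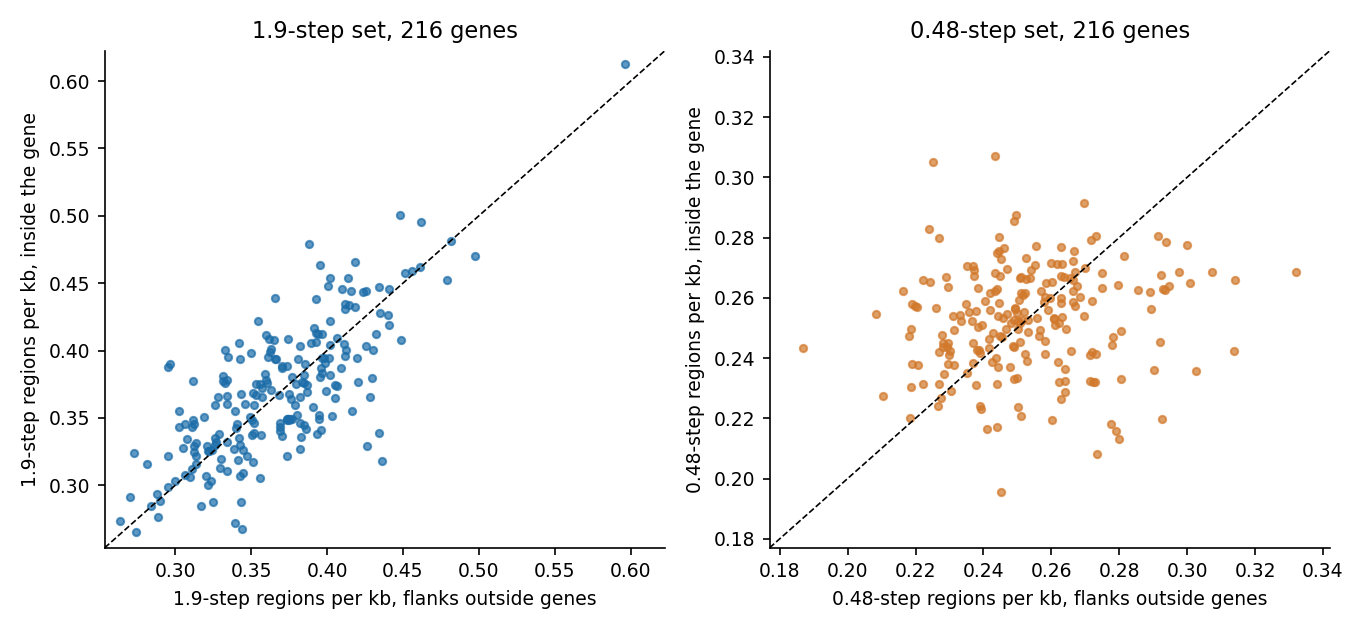
Regions per kb inside each of the 216 very long genes (y) against regions per kb in its flanks outside genes (x), for the 1.9-step set (left) and the 0.48-step set (right), with the dashed line of equal density. Points follow the line on the left (r = 0.76) and form a round cloud on the right (r = 0.14).

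The 1.9-step regions of very long genes were also somewhat lower in height, as were those of their flanks. Regions of 4 or more steps, 7.6 or higher, made up 21.1% of the 1.9-step set in very long genes (Wilson interval 20.8 to 21.4), 21.4% in their flanks (21.1 to 21.8), 23.8% in genes of 100 to 200 kb (23.5 to 24.1) and 23.1% over chromosomes 1 to 19. The difference between very long genes and genes of 100 to 200 kb was -2.63 percentage points (Newcombe interval -3.06 to -2.19), and -1.89 without chromosomes 5, 10 and 15. Regions of only 2 steps made up 37.9% in very long genes against 34.9% in genes of 100 to 200 kb. In all 216 genes the median height was 5.7, or 3 steps, in the 1.9-step set and 0.96, or 2 steps, in the 0.48-step set. Of 1345 genes of 100 to 200 kb, 1302 and 1337 had these same medians, so they do not set very long genes apart. In the 0.48-step set 24.6% of regions in very long genes had 3 or more steps, against 24.8% in genes of 100 to 200 kb and 24.5% over chromosomes 1 to 19, a difference of -0.13 points (-0.69 to 0.42). The mean width of the 1.9-step regions was 502 bp in very long genes and 514 bp in genes of 100 to 200 kb, and the set covered 18.4% and 21.1% of their bases.

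**Figure D4:**
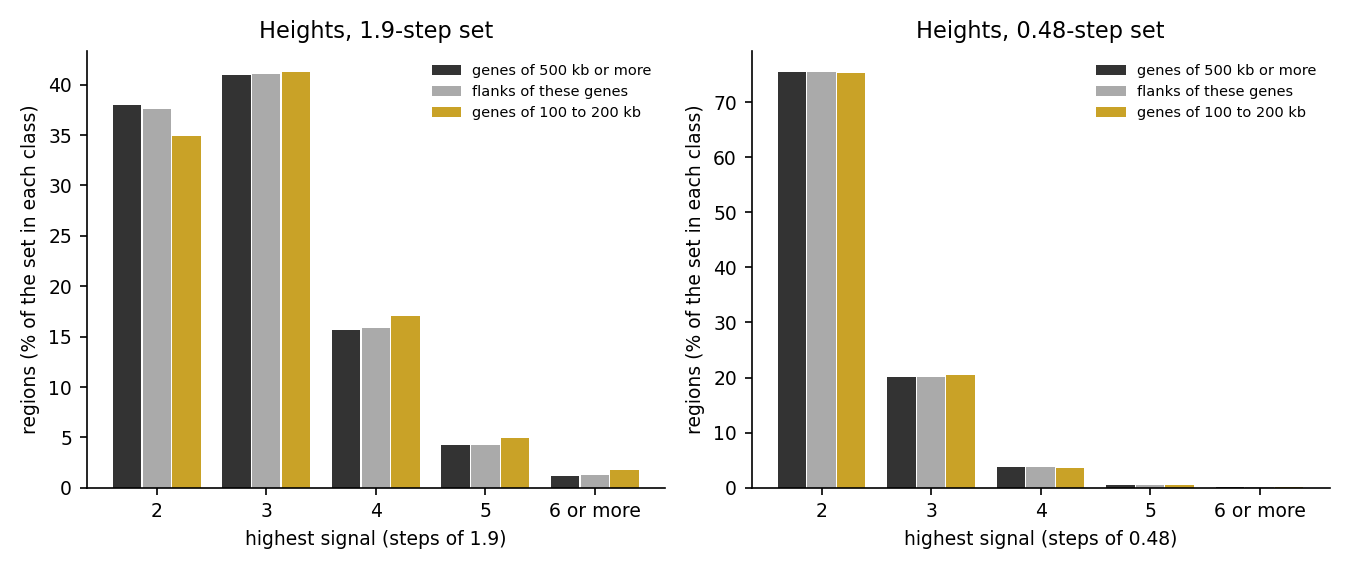
Share of regions at each height, in percent of the set in each class, for genes of 500 kb or more, their flanks and genes of 100 to 200 kb, with the 1.9-step set on the left and the 0.48-step set on the right. At 2 steps of 1.9 the bars stand at 37.9%, 37.5% and 34.9%, and at 2 steps of 0.48 at 75.4%, 75.5% and 75.2%.

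Genes dense in 1.9-step regions also had taller ones (Pearson r = 0.67, Spearman rho = 0.63 between density and the share of 4 or more steps, 216 genes). Anks1b had the highest share, 34.9% (Wilson interval 31.4 to 38.5), followed by Pde4b, a cAMP phosphodiesterase, with 30.9% (25.4 to 37.1) and Ryr3, a calcium release channel, with 30.3% (24.7 to 36.5). Sugct had the lowest, 11.8% (8.23 to 16.6), followed by Ryr2 with 12.9% (8.43 to 19.3) and the zinc finger gene Zfp804b with 13.2% (9.17 to 18.6). The adhesion and synaptic genes had 20.8% and the other very long genes 21.4%, a difference of -0.60 points (Newcombe interval -1.22 to 0.028). That interval spans 0, but those with genes of 400 kb or more (-1.33 to -0.23), without chromosomes 5, 10 and 15 (-1.49 to -0.14), for 5 or more steps (-0.78 to -0.088) and with genes of 500 kb to 1 Mb (-1.71 to -0.046) did not, so whether the groups differ in height depends on these choices.

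Very tall regions were few. A highest signal of 10 steps or more was reached by 6 regions, each in a different gene. That is 0.00911% of the 1.9-step regions in very long genes, against 0.0278% (21 regions) in genes of 100 to 200 kb and 0.0366% over chromosomes 1 to 19. Without chromosomes 5, 10 and 15 these shares were 0.00888% (5 regions), 0.0178% (11 regions) and 0.0222%. The counts are small, and no interval was computed for these shares. The tallest, 535 bp in Auts2 (chr5:131519523-131520057), had a highest signal of 83.6, or 44 steps, and no 0.48-step region over it. A region of 354 bp in Nkain3, a sodium pump-interacting protein (chr4:20191783-20192136), had 41.8, and a region of 333 bp in Cntnap5b, a neurexin-like protein (chr1:100180097-100180429), had 39.9. Dlgap2, a postsynaptic scaffold, had 30.4 (chr8:14306686-14307277), Lpp, a LIM protein of focal adhesions, 26.6 (chr16:24583375-24583614), and Pde4b 22.8 (chr4:102483016-102485149). A 0.48-step region overlapped 2 of the 6, those in Nkain3 and Dlgap2, against 17.7% of all 1.9-step regions in very long genes. With 6 regions this count cannot be told from that share. None lay within 10 kb of an end of its gene, but such ends are a small part of genes this long, so that count says little. The shortest distance was 80.9 kb, in Nkain3. In the other 210 genes the highest signal stayed below 10 steps.

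Starts of very long genes were no denser in regions than the rest of the gene within counting error. Within 1 kb of the 271 annotated starts there were 191 1.9-step regions, 0.378 per kb, against 0.366 in the rest of the very long genes, a ratio of 1.03 (exact binomial interval 0.892 to 1.19). The 0.48-step set had 132 such regions and also a ratio of 1.03 (0.864 to 1.23). In genes of 100 to 200 kb these ratios were 1.03 (0.975 to 1.10) and 0.942 (0.871 to 1.02). A 1.9-step region overlapped 28.8% of the 271 promoter windows of very long genes, which run from 250 bases before the start to 50 after, against 35.2% in genes of 100 to 200 kb and 34.7% over all autosomal protein-coding genes. For the 0.48-step set the shares were 13.7%, 13.3% and 12.7%. Of the 169 genes with an annotated start, 63 (37.3%) had at least 1 promoter window under a 1.9-step region. In genes of 100 to 200 kb 442 of 1062 (41.6%) did. After Grip1 and Dgkb, the tallest promoter regions outside chromosome 18 were 9.5 at Zbtb20, a zinc finger repressor, and 9.5 at Ank2, an ankyrin that anchors membrane proteins.

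Along the gene the density was nearly flat. When the 169 genes of known strand were divided into 10 equal pieces from start to end, 1.9-step density ran between 0.358 per kb in piece 3 and 0.382 in piece 10. The 0.48-step density ran between 0.246 in piece 1 and 0.260 in piece 6. In genes of 100 to 200 kb the 1.9-step density lay between 0.404 and 0.415, above every piece of the very long genes.

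**Figure D5:**
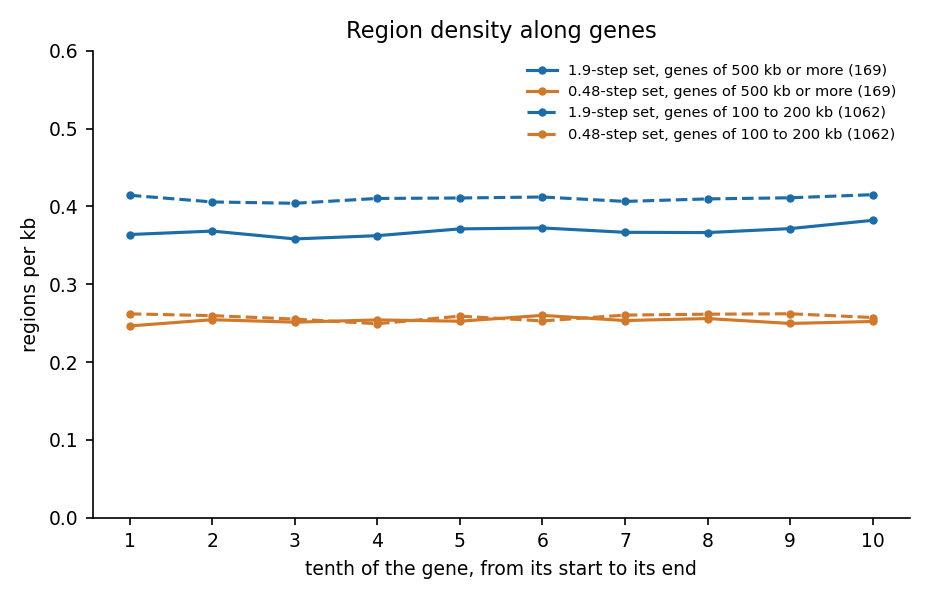
Regions per kb in each of 10 equal pieces of the gene from its start to its end, pooled over 169 very long genes (solid) and 1062 genes of 100 to 200 kb (dashed), for the 1.9-step and the 0.48-step set. All lines are nearly flat, and the solid 1.9-step line, at 0.358 to 0.382, runs below the dashed one throughout.

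On a finer scale the counts of regions varied less between windows than random counting gives, where the variance equals the mean. In windows of 10 kb inside very long genes the count of 1.9-step regions averaged 3.66 with a variance of 0.763 times the mean, and 1.87% of 17906 windows had none. The 0.48-step set averaged 2.53 with a variance of 0.934 times the mean, and 7.47% of windows had none. Regions that do not overlap each other would give a lower ratio than random counting, but overlap within a set was not tested. In genes of 100 to 200 kb the ratios were 0.716 and 0.942. Of the 0.48-step regions in very long genes, 26.9% overlapped a 1.9-step region (Wilson interval 26.5 to 27.3), against 26.7% in the flanks and 30.03% in genes of 100 to 200 kb, where the 1.9-step set covers more of the sequence. In the other direction 17.7% of 1.9-step regions overlapped a 0.48-step region (17.4 to 17.98), against 17.98% in genes of 100 to 200 kb.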

How the data were processed

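The deposited file lists called regions in SEACR's layout. Per region the authors give the highest coverage signal and a summed score in signal times bp, which served only to break ties and to describe signal per base. The submitters' processing notes name Bowtie2, deepTools, SEACR and mm10. Sources used here do not give versions, thresholds, scaling or how the 4 libraries were combined, and depth per library is unknown. No column holds a single library, so a planned comparison of FLAG with IgG libraries in limma could not be made.

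Heights were divided by 1.9 and 0.48, and set membership required a whole multiple to a tolerance of 0.001. Genes came from a RefSeq table of GRCm38.p6 (20665 autosomal protein-coding genes), strands and promoters from its promoter table. Of 1368 genes of 100 to 200 kb, 23 that overlap a very long gene were left out. Iqschfp overlaps Schip1, and 3 protocadherin gene models on chromosome 18 overlap, so pooled values use merged spans. Overlapping genes each keep their own counts.

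Of the 599 genes on 6 lists, written from general knowledge, 591 matched a symbol. Some assignments are broad, and some synaptic and adhesion genes are on no list. The members, sets, lists and thresholds were chosen with earlier results of these data known. Genes were named by rule: the longest, densest, sparsest and tallest, the longest of each list, and those at the length limit. Ratios carry exact binomial, single genes exact Poisson and shares Wilson or Newcombe 95% intervals. Only the binomial and Newcombe intervals were tested on simulated data. The simulated regions were placed independently and at a lower density than here, so that test does not cover the spread between genes. Printed promoters are those with the tallest regions and those of the longest genes without one, chromosome 18 left out. Alternatives changed the length limits, the membership rule, the measure and the chromosomes. Python 3.11.15, numpy 2.4.6, pandas 2.3.3, scipy 1.17.1 and matplotlib 3.10.9 were used.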

Additional observations from a re-analysis of the deposited data

How the results depend on the processing

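Of 74 alternative values, 62 stayed within the interval of the main value and 12 moved outside it. Of the 74, 6 fell on the other side of no difference, each for a result whose main interval spans no difference. The difference in the share of tall 0.48-step regions, -0.13 points, became 0.13 for 4 or more steps, 0.083 against genes of 200 to 500 kb and 0.15 against genes of 50 to 100 kb. The 1.9-step ratio to the flanks, 1.006, became 0.995 as a ratio of medians and 0.999 for regions of 3 or more steps. The 0.48-step ratio of adhesion and synaptic genes, 0.996, became 1.001 with the 7 further genes on the lists. The 1.9-step density ratio of very long genes to genes of 100 to 200 kb, 0.891, became 0.903 with genes of 400 kb or more, 0.878 with 750 kb or more, 0.922 against genes of 200 to 500 kb, 0.869 by bases covered, 0.850 for regions of 3 or more steps and 0.902 without chromosomes 5, 10 and 15. The 0.48-step ratio, 0.982, became 0.998 against genes of 200 to 500 kb. The difference in the share of tall 1.9-step regions, -2.63 points, became -1.22 for 5 or more steps, -3.22 against genes of 50 to 100 kb and -1.89 without chromosomes 5, 10 and 15. The 1.9-step ratio of adhesion and synaptic genes, 0.958, became 0.975 with genes of 750 kb or more and 0.929 as a ratio of medians. The restriction to genes under 1 Mb and the 7 further genes were chosen after seeing the data. The cause of these moves was not tested. No paired analysis was possible because no column holds a single library. For the same reason no library could be left out. Repeats, base composition and mappability were not analysed here. Depth per library is unknown, so the intervals rest on numbers of regions.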
